A study of Mus musculus with 2 samples.

Results

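The genes described here are 10 checkpoint ligands and inhibitory myeloid receptors, picked by symbol from a table of 55401 gene rows. They are Vsir, Cd274, Pdcd1lg2, Cd80, Cd86, Lgals9, Havcr2, Sirpa, Pirb and Lilrb4a, and each had 1 row in the table. Their transcripts were counted in myeloid-derived suppressor cells (MDSCs), a mixture of immature neutrophil-like and monocyte-like cells that restrain T cells in tumours. There were 2 RNA-seq libraries, both of C57BL/6 mice aged 8 weeks. The first came from LysM-cre, Mettl3fl/fl mice, in which the Cre recombinase of the lysozyme 2 locus, active in many but not all myeloid cells, can remove floxed parts of Mettl3, the catalytic subunit of the m6A writer. The second came from Mettl3fl/fl mice, which carry the same floxed alleles without Cre and served as the control. Cells of both genotypes were taken from tumour-bearing mice by magnetic sorting and then kept for 24 h with MC38, a colon adenocarcinoma line of mice. The tumour is given as MC38 for the control and as MC39 in a label of the other library, while both treatment protocols name MC38. Replicates are mentioned for the study, yet there is 1 library of each genotype here, and no label says how many mice went into it.

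Checkpoint proteins pass brakes or permissive signals between myeloid cells and their partners. Ligands of the B7 family on a myeloid cell meet CD28, CTLA-4 or PD-1 on a T cell, and galectin-9 meets TIM-3. Inhibitory receptors work in the other direction: motifs in their tails recruit phosphatases such as SHP-1, which dampen activation of the myeloid cell itself. In tumours such molecules are known mainly as means by which MDSCs and macrophages hold T cells and phagocytosis in check.

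The libraries held 59393864 counts (labelled LysM-cre) and 59506878 counts (control), and 12526 genes had a mean of 1 FPKM or more. FPKM is the count scaled by transcript length and library size. It allows levels of different genes to be compared where the length used matches the transcripts present. With 1 library of each genotype there is no replicate spread and no test, and every difference below is between these libraries. Intervals are exact 95% (Clopper-Pearson) intervals of the ratio of depth-scaled counts (CPM), the library labelled LysM-cre over the control, and cover counting error only. The targeted gene did not check the labels: Mettl3 had 1333 counts (3.92 FPKM) in the library labelled LysM-cre and 1413 counts (4.16 FPKM) in the control, a CPM ratio of 0.945 with an interval of 0.876 to 1.02. Genotype is thus used as a label, without a check from the gene itself. In bulk RNA a lower value can mean fewer cells of a type or less RNA per cell, and the files do not tell these apart.

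All 10 genes passed the minimum of 1 FPKM in each library. In the library labelled LysM-cre, the order of levels was Sirpa at 115 FPKM, Pirb at 107, Lilrb4a at 75.7, Lgals9 at 59.9, Vsir at 53.4, Cd86 at 35.7, Cd274 at 28.4, Havcr2 at 18.4, Cd80 at 6.31 and Pdcd1lg2 at 2.80. In the control the order was Vsir at 114 FPKM, Sirpa at 113, Pirb at 102, Lilrb4a at 85.0, Lgals9 at 64.4, Cd86 at 32.3, Cd274 at 31.4, Havcr2 at 19.4, Cd80 at 5.82 and Pdcd1lg2 at 2.67. Vsir alone stood elsewhere, taking the fifth place (library labelled LysM-cre) against the first (control), while the other 9 kept their order. Vsir and Sirpa in the control, at 114 and 113 FPKM, were too close to be ordered without replicates, and so were Sirpa and Pirb in either library. The places also rest on the length used for each gene. The count, FPKM and library total of Lilrb4a imply 5.87 kb, while its main GENCODE M21 transcript has 1381 bases. With a shorter length its FPKM would be higher, so its place, and those of the genes around it, are uncertain.

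**Figure D1:**
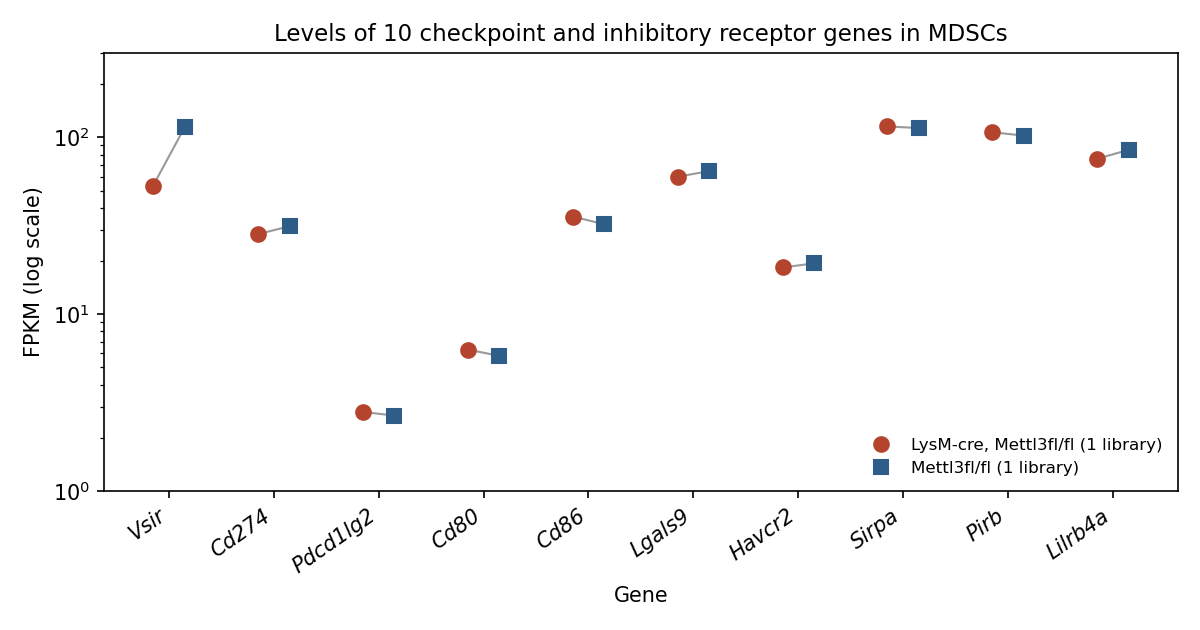
FPKM (log axis) of each of the 10 genes in the library labelled LysM-cre, Mettl3fl/fl (circles) and in the Mettl3fl/fl library (squares), 1 library each, joined by a line. The circle of Vsir stands at 53.4 FPKM and its square at 114 FPKM, whereas the points of each other gene lie close together.

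Vsir, the gene of the B7-family checkpoint VISTA, differed most of the 10 genes. VISTA is abundant on myeloid cells and restrains T cell activation. The gene (chr10:60346851-60372684, plus strand, mm10) had 17853 counts and 53.4 FPKM in the library labelled LysM-cre, against 38161 counts and 114 FPKM in the control. The CPM ratio was 0.469 (interval 0.460 to 0.477), and the log2 ratio of FPKM + 1 was −1.08. Vsir was the 127th lowest of the 12526 log2 ratios. Among 10250 kept genes with a protein-coding transcript, 42 had a lower ratio. Among the 749 of these with a mean of 50 FPKM or more, a cut chosen after the data were seen, 0 had. The row lies inside Cdh23, a cadherin gene on the opposite strand, which had 246 counts in the library labelled LysM-cre and 240 in the control, far below the gap at Vsir. The 1 other row with counts within 30 kb, Gm17455 on the same strand and 27042 bases away (named after its values were seen), had 76 counts in the library labelled LysM-cre and 171 in the control.

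At a 2-fold difference in FPKM + 1, Vsir was the 1 member of 10 called lower, beside 1.18% of all kept genes, and 0 members were called higher, beside 1.31%. At 1.5-fold the member counts were the same, 1 lower and 0 higher, beside 3.28% and 3.19% of all genes. The other 9 members had log2 ratios between −0.17 and 0.14. Over all 10 the median log2 ratio was −0.02 and the median absolute one 0.10, where all kept genes had 0.00 and 0.11. The remaining checkpoint genes thus differed about as little as genes in general. Their summed level was 449 FPKM in the library labelled LysM-cre and 456 FPKM in the control, and with Vsir it was 503 FPKM in the library labelled LysM-cre and 570 FPKM in the control. Vsir alone made up 10.6% of the summed FPKM of the 10 genes in the library labelled LysM-cre, against 20.0% in the control. These sums and shares rest on the length used for each gene, the uncertain one of Lilrb4a included.

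**Figure D2:**
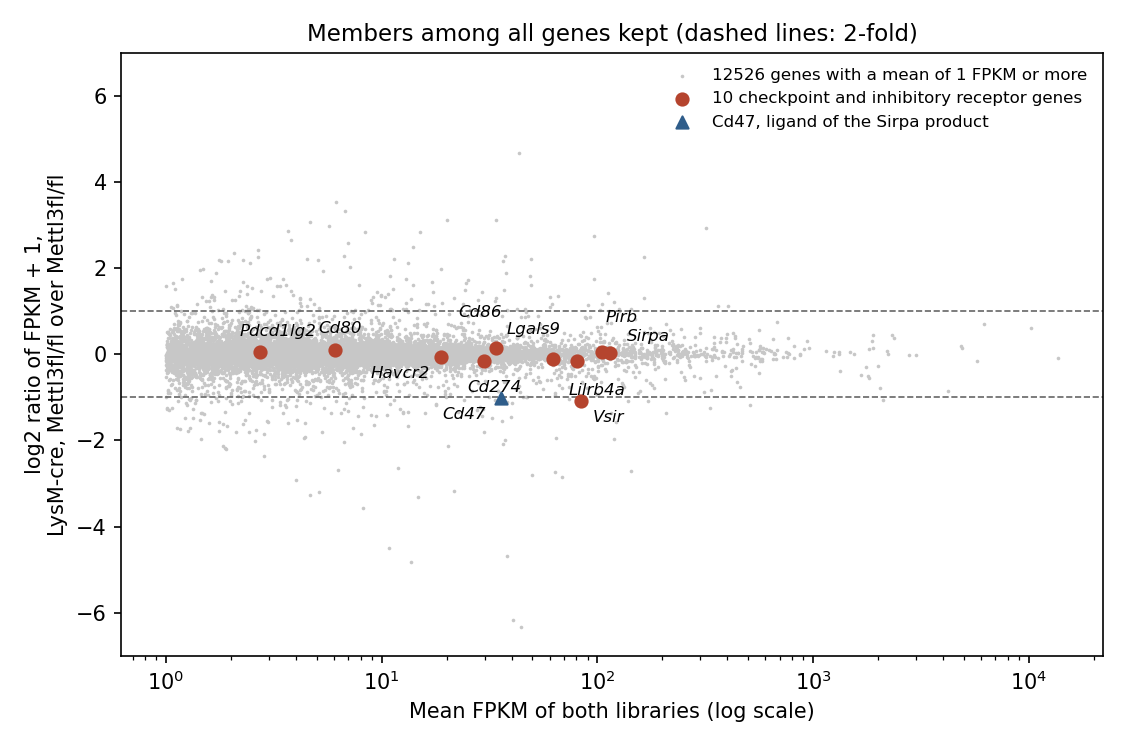
Mean FPKM of both libraries (log axis) against the log2 ratio of FPKM + 1, the library labelled LysM-cre over the control, for 12526 genes (grey), the 10 members (circles) and Cd47 (triangle), with dashed lines at 2-fold. Vsir lies at −1.08 and Cd47 at −1.01, while the other 9 members lie between −0.17 and 0.14.

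METTL3 is known to methylate adenosines in a short RNA context of which GGACT (as DNA letters) is a common form, often near stop codons, so these letters were looked for in the members' transcripts (GENCODE M21, mm10, 1 main transcript a gene, sense strand only). A match shows letters and no methylation, and m6A was not measured in these libraries. In windows of 200 bases on either side of the start of the stop codon, 6 of 10 members held GGACT, beside 41.2% of 8943 transcripts of kept genes with such a window. Vsir was not among the 6. Its 4846-base transcript held GGACT 4 times, or 0.825 times per kb, where the median transcript had 1.05, and all 4 lay farther into the 3′ UTR. The Vsir sites are shown because Vsir is the gene with the difference, with GGACT in capitals and the distance in bases from the stop codon to the motif.
Vsir, 464 bases, chr10:60369393-60369413, plus strand: cctctgttGGACTgactctat
Vsir, 918 bases, chr10:60369847-60369867, plus strand: agctgagtGGACTggaggcac
Vsir, 2643 bases, chr10:60371572-60371592, plus strand: tccccggaGGACTtggaggag
Vsir, 3304 bases, chr10:60372233-60372253, plus strand: cctgccttGGACTcaggaagg

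The 6 sites near a stop codon belong to genes whose levels differed by less than 1.5-fold, and are listed as well. Any link between these letters and the levels was not tested. That of Cd274 lies in the coding sequence, at position −161 from the stop codon, and the others lie in the 3′ UTR.
Cd274, coding, chr19:29382498-29382518, plus strand: acagaacaGGACTcactgggt
Pdcd1lg2, 86 bases after, chr19:29470568-29470588, plus strand: agacttctGGACTcaaagtga
Cd80, 86 bases after, chr16:38494515-38494535, plus strand: tctgcaaaGGACTtcagaaac
Havcr2, 11 bases after, chr11:46479447-46479467, plus strand: ccgcctctGGACTgccacttt
Pirb, 41 bases after, chr7:3712600-3712620, minus strand: cctccaagGGACTctgggaac
Lilrb4a, 90 bases after, chr10:51496324-51496344, plus strand: atcccagtGGACTctatttaa
Over whole transcripts the members ran between 0.251 GGACT per kb in Sirpa and 3.62 in Lilrb4a. Vsir had the second lowest of these densities, and Cd86, Lgals9 and Sirpa likewise had no match in the window.

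The ligands of PD-1 differed little. Cd274 (chr19:29367455-29388095, plus strand) encodes PD-L1, the ligand through which many cells switch off PD-1-bearing T cells. It had 6852 counts and 28.4 FPKM in the library labelled LysM-cre, against 7609 counts and 31.4 FPKM in the control. The CPM ratio was 0.902 (interval 0.873 to 0.932), well inside 1.5-fold. On the opposite strand, the row Gm36043 overlaps Cd274 and had 240 counts in the library labelled LysM-cre and 396 in the control. The libraries were made with a strand-marking kit, but the strand setting of the counting is not stated. Pdcd1lg2 (chr19:29410919-29471161, plus strand), next to Cd274, encodes PD-L2, a ligand of PD-1 known mainly from dendritic cells and macrophages. It was the lowest of the 10, with 367 counts and 2.80 FPKM in the library labelled LysM-cre and 351 counts and 2.67 FPKM in the control. Its CPM ratio of 1.05 (interval 0.902 to 1.22) did not differ from 1 beyond counting error at this depth. Cd274 was 10.1 times the FPKM of Pdcd1lg2 in the library labelled LysM-cre and 11.8 times in the control. Vsir, in turn, was 1.88 times the FPKM of Cd274 in the library labelled LysM-cre and 3.62 times in the control.

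Both classical B7 genes were slightly higher in the library labelled LysM-cre. Their products bind CD28, which activates T cells, and CTLA-4, which restrains them. Cd80 (chr16:38455561-38496335, plus strand) had 1559 counts and 6.31 FPKM in the library labelled LysM-cre, against 1441 counts and 5.82 FPKM in the control (CPM ratio 1.08, interval 1.01 to 1.17). Cd86 (chr16:36603869-36666081, minus strand) had 8710 counts and 35.7 FPKM in the library labelled LysM-cre and 7893 counts and 32.3 FPKM in the control (CPM ratio 1.11, interval 1.07 to 1.14). This was the highest ratio of the 10 and still below 1.5-fold. Cd86 stood at 5.66 times the FPKM of Cd80 in the library labelled LysM-cre and at 5.55 times in the control, so the pair kept its proportion.

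Lgals9 (chr11:78962974-78984946, minus strand) encodes galectin-9, a sugar-binding ligand of TIM-3 that interferons are known to induce. It had 8536 counts and 59.9 FPKM in the library labelled LysM-cre, against 9200 counts and 64.4 FPKM in the control (CPM ratio 0.930, interval 0.903 to 0.957). Havcr2 (chr11:46454935-46481255, plus strand) encodes TIM-3, a receptor on exhausted T cells and on myeloid cells. It had 3335 counts and 18.4 FPKM in the library labelled LysM-cre and 3525 counts and 19.4 FPKM in the control (CPM ratio 0.948, interval 0.904 to 0.994). Ligand and receptor were thus both lower by a few percent, and Lgals9 was 3.26 times the FPKM of Havcr2 in the library labelled LysM-cre and 3.32 times in the control.

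Promoters (250 bases before to 50 after the gene start, RefSeq, GRCm38.p6) were held for 7 of the 10 genes and were searched for 2 letter patterns on both strands. GAAA followed after any 2 bases by GAAA, the core of the interferon-stimulated element bound by IRF factors, was present in 3.44% of 32851 promoters and, among the members, in that of Lgals9 only. TTCNNNGAA, the core bound by STAT factors, which reads the same on both strands, was present in 8.30% of promoters and in 0 of the 7. The matches of Lgals9, on the strand opposite to the gene and so read here in reverse complement (capitals), began 55 bases before and 15 bases after the gene start.
Lgals9, before the start, chr11:78984962-78984987, minus strand: acatcagcTTTCTTTTTCtctagaca
Lgals9, after the start, chr11:78984892-78984917, minus strand: agctgtggTTTCTGTTTCctagctca
A match is no proof of binding, and Lgals9 itself differed by less than 1.5-fold.

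Sirpa, Pirb and Lilrb4a encode receptors that inhibit the cell that carries them. By FPKM they were the 3 highest of the 10 genes in the library labelled LysM-cre and came after Vsir in the control. Sirpa (chr2:129592835-129632228, plus strand) encodes SIRPα, which binds CD47 on other cells and holds back the phagocytosis of those cells. It had 37751 counts and 115 FPKM in the library labelled LysM-cre, against 37051 counts and 113 FPKM in the control (CPM ratio 1.02, interval 1.01 to 1.04). Pirb (chr7:3711409-3720391, minus strand) encodes PIR-B, a receptor for MHC class I molecules in mice. It had 31861 counts and 107 FPKM in the library labelled LysM-cre and 30568 counts and 102 FPKM in the control (CPM ratio 1.04, interval 1.03 to 1.06). Both ratios were close to 1, and with counts this large the intervals are narrow enough to lie above it.

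Lilrb4a (chr10:51490956-51496611, plus strand) encodes the inhibitory receptor gp49B. It had 26386 counts and 75.7 FPKM in the library labelled LysM-cre, against 29696 counts and 85.0 FPKM in the control (CPM ratio 0.890, interval 0.876 to 0.905). Its neighbour Lilr4b, a near-identical relative, had 12727 counts and 35.1 FPKM in the library labelled LysM-cre, against 18854 counts and 51.9 FPKM in the control (CPM ratio 0.676, interval 0.661 to 0.692). Gm49339 overlaps both rows on the same strand and had 4891 counts in the library labelled LysM-cre and 5369 in the control. The sources used here do not say how reads matching several copies were assigned, so the split between these rows is uncertain. Summed over the 3 rows, the locus had 44004 counts in the library labelled LysM-cre and 53919 in the control, a CPM ratio of 0.818 (interval 0.807 to 0.828). The antisense row Gm40645 had 0 counts in the library labelled LysM-cre and 32 in the control.

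**Figure D3:**
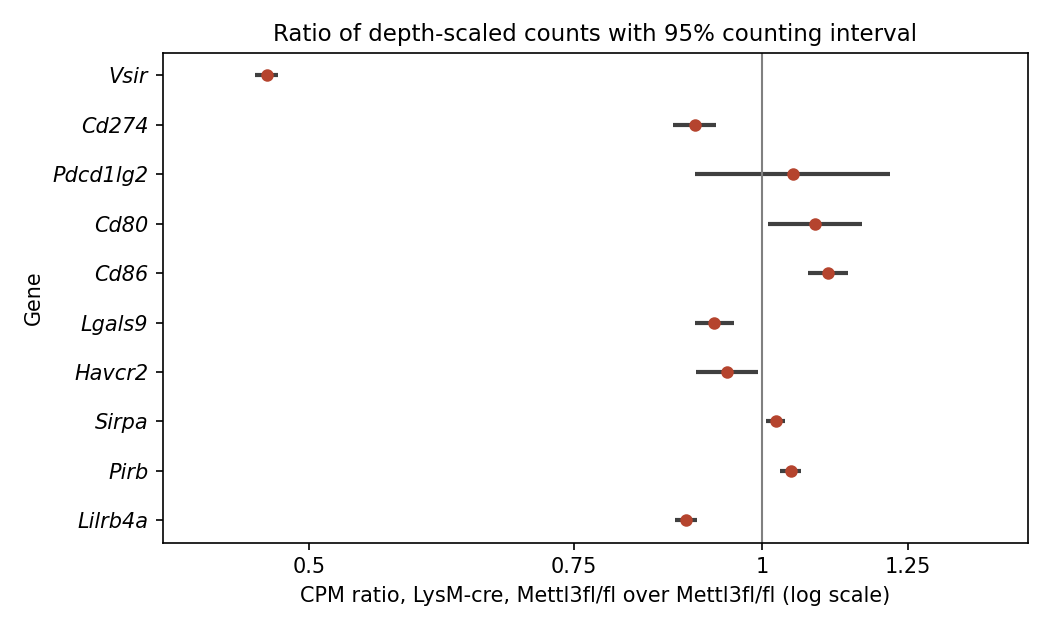
CPM ratio (log axis) of the library labelled LysM-cre over the control for each of the 10 genes, with exact 95% counting intervals as bars. Vsir lies at 0.469, and the other 9 genes lie between 0.890 and 1.11.

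By counting error alone, 5 of the 10 members had an interval below 1, beside 29.7% of all kept genes, and 4 had one above 1, beside 30.1%. Genes with many counts reach this at small differences. The member left was Pdcd1lg2, the least counted.

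Relatives of the members with shared sequence were next. Of 19 listed paired receptors and relatives, 13 were found in the table and 12 were kept, with 8 higher, 4 lower, 0 past 1.5-fold and a median log2 ratio of 0.06. Pira2, an activating relative of PIR-B, had 42.5 FPKM in the library labelled LysM-cre and 40.6 FPKM in the control, and Pirb was 2.52 times its FPKM in each library. Lilra6 had 36.0 FPKM (labelled LysM-cre) and 34.7 FPKM (control), and Lilra5 had 34.7 FPKM (labelled LysM-cre) and 29.6 FPKM (control). The SIRP relatives were close to level, like Sirpa. Sirpb1a had 41.0 FPKM (labelled LysM-cre) and 41.9 FPKM (control), Sirpb1b 36.5 FPKM (labelled LysM-cre) and 37.7 FPKM (control), and Sirpb1c 32.2 FPKM (labelled LysM-cre) and 36.2 FPKM (control). The relatives of TIM-3 were scarcer than Havcr2 itself. Timd4, a receptor for phosphatidylserine, had 16.4 FPKM (labelled LysM-cre) and 16.0 FPKM (control), and Havcr1 had 1.79 FPKM (labelled LysM-cre) and 1.58 FPKM (control). Timd2 stayed below the minimum with 43 counts (labelled LysM-cre) and 7 counts (control). A last set encodes activating receptors of myeloid cells, all higher in the library labelled LysM-cre by less than 1.5-fold. Sirpb1a, Sirpb1b and Sirpb1c were lower, so this is no result for activating receptors as a class. Cd300lb had 66.7 FPKM (labelled LysM-cre) and 59.6 FPKM (control), Pilrb1 53.3 FPKM (labelled LysM-cre) and 46.4 FPKM (control), and Pilrb2 51.8 FPKM (labelled LysM-cre) and 48.3 FPKM (control). Gene copies in this list can share reads, so small differences between them are uncertain.

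Among 9 listed binding partners of the members, 7 were kept, with 4 higher, 3 lower and a median log2 ratio of 0.01. Cd47 was the 1 gene past 1.5-fold, and it was also past 2-fold, beside 3.28% and 1.18% of all kept genes lower at these folds. It encodes the ligand of SIRPα that protects cells from being engulfed. Cd47 (chr16:49800533-49911091, plus strand) had 9785 counts and 23.4 FPKM in the library labelled LysM-cre, against 20204 counts and 48.2 FPKM in the control. The CPM ratio was 0.485 (interval 0.474 to 0.497) and the log2 ratio −1.01, and no other row with counts overlapped the gene. Receptor and ligand thus stood in another proportion: the FPKM of Sirpa was 4.93 times that of Cd47 in the library labelled LysM-cre and 2.34 times in the control. A partner of VISTA differed by less than 1.5-fold: Selplg, the gene of PSGL-1 (named after its values were seen), had 141 FPKM in the library labelled LysM-cre and 137 FPKM in the control. Apoe, whose human protein binds the human relative of the Lilrb4a receptor, had 482 FPKM (labelled LysM-cre) and 405 FPKM (control). Ceacam1, a partner of TIM-3, had 54.7 FPKM (labelled LysM-cre) and 59.3 FPKM (control). Fn1, which encodes fibronectin, had 108 FPKM (labelled LysM-cre) and 105 FPKM (control).

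Further inhibitory receptors of leukocytes held no gene past 1.5-fold either. Of 16 listed, 15 were kept, with 7 higher, 8 lower and a median log2 ratio of −0.07. Milr1, an inhibitory receptor of mast and other myeloid cells, had 12.2 FPKM in the library labelled LysM-cre and 17.5 FPKM in the control, the log2 ratio farthest from 0 in the list at −0.49. Cd33, a sialic acid receptor, had 27.2 FPKM (labelled LysM-cre) and 33.7 FPKM (control). Cd22, its relative on B cells, had 14.1 FPKM (labelled LysM-cre) and 15.8 FPKM (control). Cd5, known from T cells, had 11.1 FPKM (labelled LysM-cre) and 9.53 FPKM (control).

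The other B7 and butyrophilin relatives were mostly scarce, with 7 of 15 genes kept, 1 higher, 6 lower, 0 past 1.5-fold and a median log2 ratio of −0.07. Icosl, the ligand of the co-stimulatory receptor ICOS, had 10.5 FPKM in the library labelled LysM-cre and 12.4 FPKM in the control. Cd40, which receives T cell help, had 3.75 FPKM (labelled LysM-cre) and 4.22 FPKM (control), and Cd200, ligand of an inhibitory receptor, had 1.28 FPKM (labelled LysM-cre) and 1.41 FPKM (control). The 1 higher gene was Tnfsf9, the ligand of the co-stimulatory receptor 4-1BB, with 121 counts and 1.40 FPKM in the library labelled LysM-cre and 69 counts and 0.800 FPKM in the control. At so low a level the pseudocount of 1 FPKM keeps it under 1.5-fold.

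Receptors of T cells for these ligands were detected as well. Of 10 listed genes 9 were kept, 6 higher and 3 lower, with 0 past 1.5-fold and a median log2 ratio of 0.05. Pdcd1, the gene of PD-1, was below the minimum, with 0.290 FPKM (labelled LysM-cre) and 0.304 FPKM (control). Btla, an inhibitory receptor also found on B and dendritic cells, had 14.7 FPKM (labelled LysM-cre) and 16.6 FPKM (control). At about the level of Havcr2, and near level between the libraries, stood Lag3, an inhibitory receptor, with 18.5 FPKM (labelled LysM-cre) and 18.6 FPKM (control) (named after its values were seen). Icos had 3.53 FPKM (labelled LysM-cre) and 3.14 FPKM (control), Cd160 had 2.43 FPKM (labelled LysM-cre) and 1.86 FPKM (control), and Ctla4 had 0.987 FPKM (labelled LysM-cre) and 1.14 FPKM (control). With overlapping rows summed, the log2 ratio of Ctla4 was 0.05 in place of −0.11.

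Signalling parts downstream of the receptors showed 0 of 19 genes past 1.5-fold, with 10 higher, 9 lower and a median log2 ratio of 0.01. The phosphatases that inhibitory tails recruit were near level (both genes named after their values were seen). Ptpn6, the gene of SHP-1, had 217 FPKM in the library labelled LysM-cre and 232 FPKM in the control, and Ptpn11, the gene of SHP-2, had 7015 counts (labelled LysM-cre) and 6957 counts (control). The lipid phosphatase gene Inppl1 had 9.47 FPKM (labelled LysM-cre) and 6.95 FPKM (control). Dok2, an adaptor that dampens signalling, had 14.9 FPKM (labelled LysM-cre) and 11.3 FPKM (control). Adaptors of activating receptors differed as little: Fcer1g had 506 FPKM (labelled LysM-cre) and 444 FPKM (control), and Hcst, the gene of DAP10, had 28.6 FPKM (labelled LysM-cre) and 32.3 FPKM (control).

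The listed regulators of PD-L1 held a gene past 1.5-fold in each direction, where all kept genes had 3.28% lower and 3.19% higher. Over all 8 lists of partners, relatives and regulators, 2 of 96 kept genes were that far lower and 2 higher. All 22 genes found, of 23 listed, were kept, with 7 higher, 15 lower and a median log2 ratio of −0.03. Irf1, a transcription factor that drives Cd274 after interferon gamma, had 16428 counts and 62.0 FPKM in the library labelled LysM-cre, against 8779 counts and 33.0 FPKM in the control (CPM ratio 1.87, interval 1.83 to 1.92). Its antisense row Gm17334 had 1028 counts (labelled LysM-cre) and 1092 counts (control). Gsk3b, a kinase whose human protein marks PD-L1 for degradation, had 2335 counts and 3.56 FPKM in the library labelled LysM-cre, against 5727 counts and 8.72 FPKM in the control (CPM ratio 0.408, interval 0.389 to 0.429). Its log2 ratio of −1.09 was past 2-fold. Irf9, part of the factor that answers type I interferon, had 17.7 FPKM (labelled LysM-cre) and 24.9 FPKM (control), a log2 ratio of −0.47 that became −0.27 with the overlapping row added. Ifngr1, a chain of the interferon gamma receptor, had 73.8 FPKM (labelled LysM-cre) and 95.7 FPKM (control). Cd274 itself had a log2 ratio of −0.14. These 4 genes were named for the largest absolute log2 ratios of the list, so they are no measure of the list as a whole.

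Of 8 galectin genes listed, 5 were kept, with 3 higher, 2 lower and a median log2 ratio of 0.12. Lgals3bp, which encodes a secreted protein that binds galectins, was the 1 gene past 1.5-fold, beside 3.19% of all kept genes higher. It had 138 FPKM in the library labelled LysM-cre and 82.9 FPKM in the control (CPM ratio 1.66, interval 1.63 to 1.69). Lgals3 had 136 FPKM (labelled LysM-cre) and 162 FPKM (control), Lgals1 had 89.8 FPKM (labelled LysM-cre) and 79.3 FPKM (control), and Lgals8 had 18.7 FPKM (labelled LysM-cre) and 17.1 FPKM (control). The log2 ratio of Lgals9, −0.10, lay between those of Lgals3, −0.25, and Lgals8, 0.12.

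**Figure D4:**
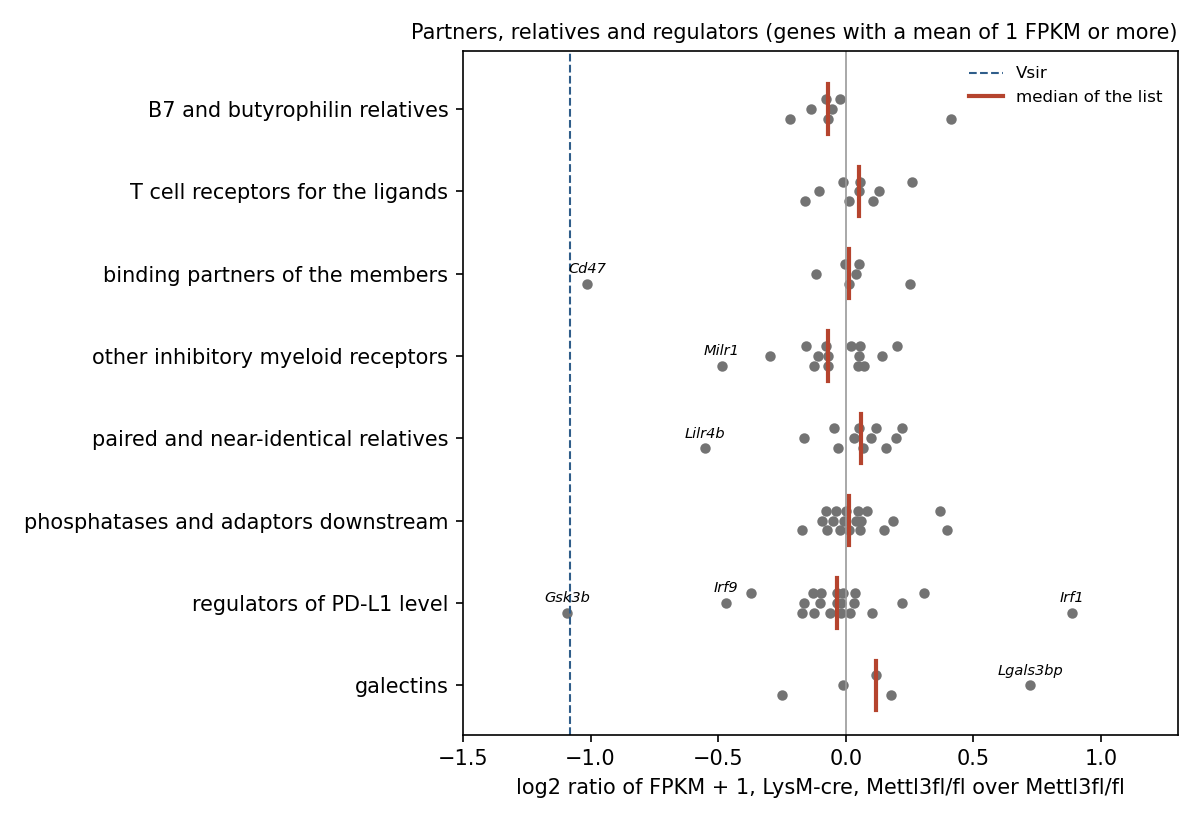
Log2 ratio of FPKM + 1, the library labelled LysM-cre over the control, for each kept gene (points) of 8 lists, with the median of each list (bar) and the value of Vsir (dashed line at −1.08). Cd47 at −1.01 and Gsk3b at −1.09 lie near Vsir, and Irf1 lies at 0.89.

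Marker lists of cell types differed between the libraries, and their part in the differences of Vsir, Cd47 and the other genes named was not tested. Neutrophil markers were lower for 10 of 12 genes (median log2 ratio −0.26) and summed to 11362 FPKM in the library labelled LysM-cre and 12948 FPKM in the control. The lowest ratio among them was −0.49, of Ly6g, with 31.3 FPKM (labelled LysM-cre) and 44.5 FPKM (control), followed by Mmp8 with 69.9 FPKM (labelled LysM-cre) and 93.8 FPKM (control). Monocyte markers were higher for 7 of 11 (median 0.05) and summed to 1500.3 FPKM (labelled LysM-cre) and 1439 FPKM (control). Most of the gap between these sums came from Cx3cr1, with 61.6 FPKM (labelled LysM-cre) and 6.16 FPKM (control). Its log2 ratio was the highest of the list, 3.13, and became 1.67 with overlapping rows summed. Macrophage markers were higher for 10 of 11 (median 0.15), summing to 2921 FPKM (labelled LysM-cre) and 2612 FPKM (control). Of 8 general myeloid markers 5 were lower (median −0.04). Their sum was 3749.7 FPKM (labelled LysM-cre) against 6073 FPKM (control), mostly from Lyz2, with 3006 FPKM (labelled LysM-cre) and 5400.0 FPKM (control). Lyz2 is the locus that carries Cre in the LysM-cre genotype, so this sum is not a measure of myeloid cells alone. Fcgr3, the 1 marker of this list past 1.5-fold higher, had 213 FPKM (labelled LysM-cre) and 139 FPKM (control). Itgam, the gene of CD11b (named after its values were seen), had 108 FPKM (labelled LysM-cre) and 95.8 FPKM (control). Both libraries thus carried this general myeloid marker.

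Other blood cells were present in both libraries. All 8 eosinophil markers had log2 ratios above 0 (median 0.49), though Ear1 was near level, with 80 counts in each library. Of the 8, 3 were past 2-fold higher, beside 1.31% of all kept genes. The highest ratio was that of Ear6, with 13.5 FPKM (labelled LysM-cre) and 4.75 FPKM (control). Prg2 came next, with 48.7 FPKM (labelled LysM-cre) and 19.2 FPKM (control). The 8 markers summed to 895 FPKM (labelled LysM-cre) and 672 FPKM (control). Most of this sum was Ear2, with 728 FPKM (labelled LysM-cre) and 572 FPKM (control). Ear1 and Ear2 were named after their values were seen. All 7 erythroid markers were higher (median 0.41), summing to 1384 FPKM (labelled LysM-cre) and 988 FPKM (control). Dendritic cell markers, 9 of 11 kept, were higher for 3 and lower for 6 (median −0.03), with sums over all 11 of 465 FPKM (labelled LysM-cre) and 427 FPKM (control). T and NK cell markers, 9 of 11 kept, were higher for 5 and lower for 4 (median 0.01), with sums over all 11 of 347 FPKM (labelled LysM-cre) and 333 FPKM (control). B and plasma cell markers were lower for 10 of 11 (median −0.09), while their sum was 788 FPKM (labelled LysM-cre) and 506 FPKM (control), with 555 FPKM (labelled LysM-cre) and 255 FPKM (control) from Jchain. Of 7 epithelial markers that tumour cells could bring, 2 were kept (median 0.19), all 7 summed to 4.07 FPKM (labelled LysM-cre) and 3.90 FPKM (control), and Krt19 and Krt20 were at 0 counts in both libraries. The log2 ratio of Vsir, −1.08, lay below that of each kept marker in the 10 lists.

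**Figure D5:**
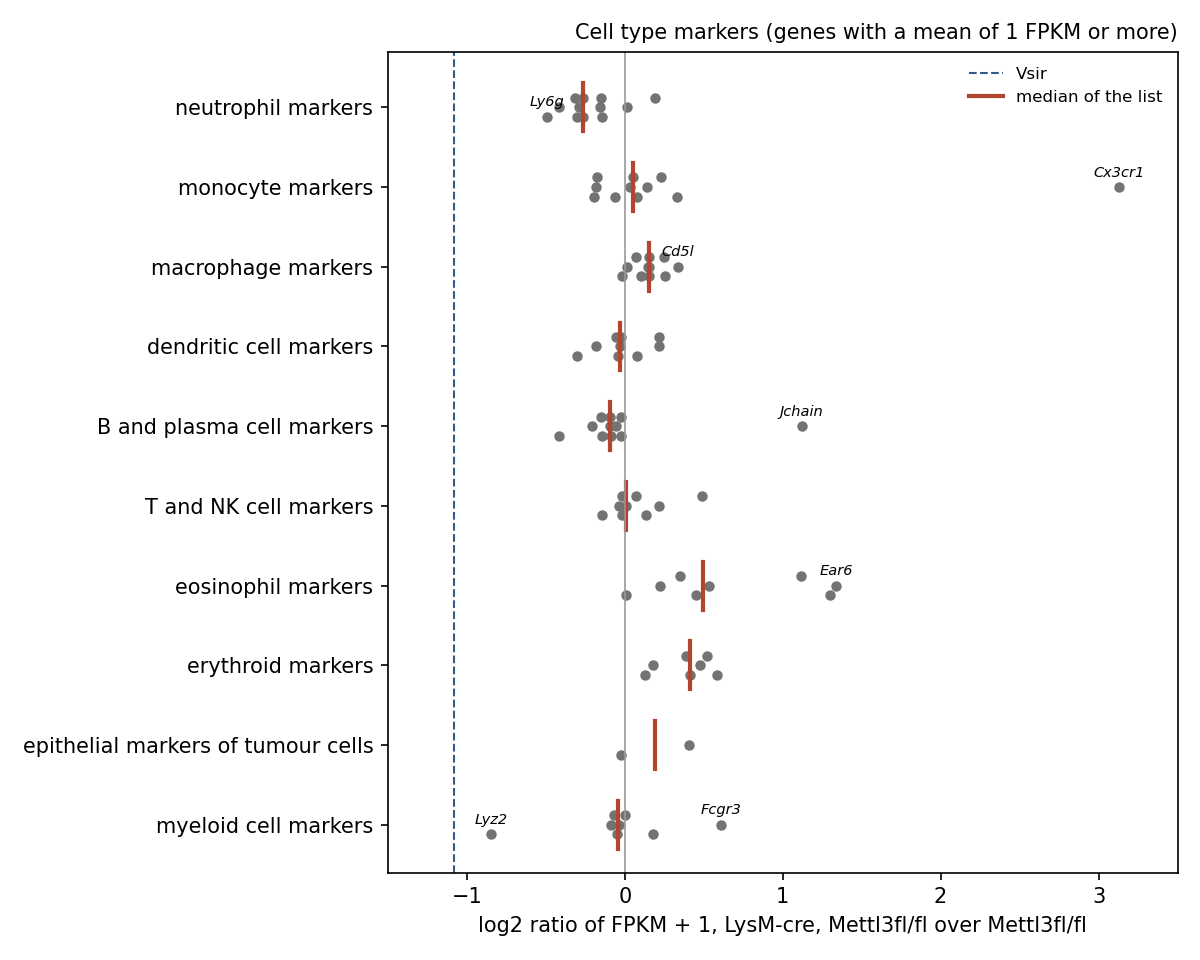
Log2 ratio of FPKM + 1, the library labelled LysM-cre over the control, for each kept gene (points) of 10 marker lists, with list medians (bars) and the value of Vsir (dashed line at −1.08). The neutrophil median lies at −0.26 and the eosinophil median at 0.49, and no marker lies as low as Vsir.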

How the data were processed

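RNA of 2 MDSC libraries, 1 for each genotype in the labels, was read as poly(A)-selected, paired-end RNA-seq with dUTP-marked second strands, per the labels' protocols. The build was mm10 and the tools named are DESeq2, edgeR, HISAT2 2.0.4, cutadapt 1.9 and StringTie 1.3.4d, per the submitters' processing notes. What each did, and how strand and reads with several matches were treated, is not stated. One table was used. Per the file headers it holds a raw count and an FPKM value for each gene row, both made by the authors; an FPKM of 0.0001 at a count of 0 was read as 0. It also holds 8 columns of 4 libraries that no label describes, which were not used.

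From these the log2 ratio of FPKM + 1 was computed, the library labelled LysM-cre over the control, for genes averaging at least 1 FPKM, and called by size alone at 2-fold and 1.5-fold, since 1 library per genotype allows no test. CPM ratios carry exact 95% intervals on the split of counts. They cover counting error only. Amplified copies of a molecule are not independent, so where such copies were counted the intervals are too narrow even for that. The members and all lists were chosen with earlier results of these data known. Of 214 list symbols, 206 were found by symbol, 1 by the table's description (Lilrb4b, listed as Lilr4b) and 7 not; Csn5, which is Cops5, is among the 7. Besides the members and Mettl3, the text names up to 4 kept genes of each pathway list by largest absolute log2 ratio. By the same rule it names 2 neutrophil, general myeloid and eosinophil markers each, and 1 monocyte and 1 B and plasma cell marker. No gene of the other marker lists was named by that rule, so their largest differences are not given. Rows overlapping a member and the paired relatives are named too, and most other genes are marked where named. Motifs were searched in 1 GENCODE M21 transcript a gene (best APPRIS rank, then longest coding sequence) and in RefSeq promoters of the same build. The procedure was tested on simulated data with counting error as the only noise, which checks the code and not the spread between mice. Computations ran in Python 3.11.15 with scipy 1.17.1, pandas 2.3.3, numpy 2.4.6 and matplotlib 3.10.9; in R 4.3.3, edgeR 4.0.16 gave TMM factors and DESeq2 1.42.0 size factors for alternative scalings.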

Additional observations from a re-analysis of the deposited data

How the results depend on the processing

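No paired analysis was possible because each genotype had 1 library, and no library could be left out. Vsir kept its direction and stayed at 2-fold or more under each of 9 alternatives (other pseudocounts, TPM, CPM, TMM factors, median of ratios, overlapping rows summed on 1 or both strands), with log2 ratios between −1.11 and −1.03. The other members gave 82 further values, between −0.29 and 0.15, and 0 changed sign; the lowest was Lilrb4a with its copies summed. With each filter, pseudocount and scaling tried, 1 member was called lower and 0 higher. Of the pathway lists, 2 genes lay past 1.5-fold lower and 2 higher with no filter, a minimum of 5 FPKM or a pseudocount of 5 FPKM, and 2 lower and 3 higher at a pseudocount of 0.1 FPKM or after rescaling to TPM. The background did move. The percent of all genes 2-fold lower and 2-fold higher was 0.745 and 0.793 with no filter on low values, 0.488 and 0.576 for protein-coding genes, 2.01 and 2.00 at a pseudocount of 0.1 FPKM and 0.431 and 0.495 at 5 FPKM; it was 1.78 lower after rescaling to TPM. At 1.5-fold it was 1.60 lower and 1.53 higher for protein-coding genes, 1.37 and 1.35 at a pseudocount of 5 FPKM, and 4.89 higher at 0.1 FPKM. Among protein-coding genes averaging at least 50 FPKM (chosen after seeing the data) it was 0.134 lower and 0.534 higher at 2-fold, and 1.20 in each direction at 1.5-fold. The 0.134 stands for 1 gene of 749, which is Vsir itself, so it is no background for Vsir. Of 89 list medians, 6 changed sign, those of the binding partners and downstream signalling genes (under TPM), T and NK cell markers and epithelial markers. Depth limited Pdcd1lg2 most, on 367 and 351 counts.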
